A study of Mus musculus with 22 samples.

Results

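The clustered protocadherins are a family of cell-surface adhesion genes that lie side by side in 3 neighbouring gene clusters, alpha, beta and gamma, on mouse chromosome 18. They were taken as every gene whose symbol in the authors' RNA table is Pcdha, Pcdhac, Pcdhb, Pcdhga, Pcdhgb or Pcdhgc followed by a number. That rule found 58 gene records of 55385, with 57 different symbols, because Pcdha11 was listed under both ENSMUSG00000007440.10 and ENSMUSG00000102206.5. The alpha cluster held 14 records, the beta cluster 22 and the gamma cluster 22. By type they were 12 alpha, 22 beta, 12 gamma A, 7 gamma B and 5 C-type records (Pcdhac1, Pcdhac2, Pcdhgc3, Pcdhgc4 and Pcdhgc5). In GRCm38 coordinates from RefSeq the alpha genes spanned chr18:36930285-37188897, and Pcdhb1 and Pcdhb22, the first and last beta genes, started at positions 37264998 and 37518353.

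The libraries came from the telencephalon, the embryonic forebrain, of mouse embryos of the ICR strain at embryonic day 13.5 (E13.5) or 16.5 (E16.5), with no treatment or engineered allele named in the labels. Polyadenylated RNA was sequenced from 2 libraries at each stage. Native chromatin immunoprecipitation was done for 3 modifications of histone H3, acetylation of lysine 9 (H3K9ac), crotonylation of lysine 9 (H3K9cr) and lactylation of lysine 18 (H3K18la), with 2 libraries for each at each stage, and open chromatin was mapped by ATAC-seq in 2 libraries at E13.5. The series' design text calls the pairs biological replicates, and the number of embryos behind each library is not stated there.

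Each neuron switches on a small, largely random choice of alpha, beta, gamma A and gamma B genes by using one promoter for each, while C-type genes follow a more regular, developmental pattern. In the alpha and gamma clusters a variable first exon, which encodes the whole extracellular part, is spliced to constant last exons that all genes of the cluster share, whereas each beta gene is a single exon. The proteins bind copies of themselves on other cells, which lets a neuron tell its own branches from those of its neighbours and supports neuron survival and wiring. Promoter choice depends on the DNA-binding protein CTCF, the cohesin ring and distant enhancers, and unused promoters are held silent by DNA methylation.

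The RNA libraries held 17059544 to 18485855 counts. Emx1, a transcription factor of the dorsal telencephalon, had levels of 96.0 and 73.8 CPM (read counts scaled to a fixed library total) in the E13.5 libraries and 34.4 and 29.6 CPM in the E16.5 libraries, and Dlx2, of the ventral telencephalon, had 299.6 and 314 CPM and then 160.1 and 170.1 CPM. The hindbrain gene Hoxb4 was at 0 in all 4 libraries, and the midbrain gene En1 was at 0 in 3 and at 0.0559 CPM in the first E16.5 library. All CPM values are scaled by TMM, which evens out differences in library composition, and errors are SD over 2 libraries unless named otherwise. Markers of other cells moved between the stages. In these counts, a marker rose or fell if the edgeR test used below called it at an adjusted p under 0.05. Over all 16237 genes tested, 28.4% were called higher and 29.2% lower. Of 11 markers of radial glia and dividing progenitors, 10 fell and 1 rose. Their summed level was 2955 and 2997 CPM at E13.5 against 1472 and 1325 CPM at E16.5. Of 12 neuronal markers 6 rose and 4 fell, with sums of 4574 and 4594 CPM against 5012 and 5116 CPM. Astrocyte-lineage markers rose for 7 of 8 tested (336 and 341 CPM against 637 and 564 CPM). Oligodendrocyte-lineage markers rose for 5 of 7 and fell for 2 (102 and 109 CPM against 194 and 177 CPM). Vessel markers rose for 8 of 8 (141 and 151 CPM against 459 and 487 CPM). Microglial markers rose for 7 of 7 (49.0 and 47.6 CPM against 105 and 106 CPM). Erythroid markers rose for 5 of 6 (1569 and 1471 CPM against 2605 and 3525 CPM). Markers of meninges and choroid plexus rose for 1 and fell for 1 of 6 tested, with sums of 23.5 and 55.1 CPM against 29.8 and 49.6 CPM. No marker on these lists was at 0 in all 4 libraries, and the part of these cell types in the protocadherin results was not tested.

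Protocadherin RNA was higher at E16.5 in all 3 clusters. The summed alpha genes stood at 80.7 and 87.8 CPM at E13.5 and at 219 and 227 CPM at E16.5. The summed beta genes stood at 108 and 102 CPM and then at 163 and 225 CPM, and the summed gamma genes at 696 and 732 CPM and then at 1129 and 1144 CPM. In each cluster both E16.5 libraries lay above both E13.5 libraries. In a model over all genes with the 3 sums in place of their members, the log2 change was 1.40 ± 0.06 (SE) for alpha, which is 2.65-fold (edgeR quasi-likelihood test with Benjamini-Hochberg adjustment, adjusted p = 1.4e-06). For beta it was 0.88 with an adjusted p of 6.3e-04, and for gamma it was 0.67 with an adjusted p of 2.8e-06, by the same edgeR test. In bulk tissue, more cells of a type and more RNA per cell cannot be told apart.

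**Figure D1:**
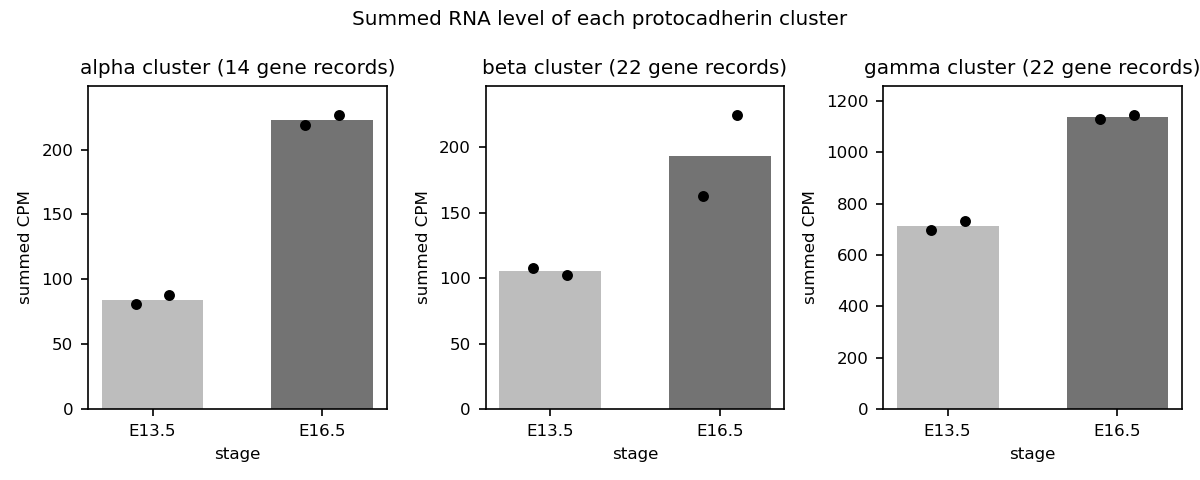
Summed CPM (vertical axis, from 0) of the genes of each cluster at each stage (horizontal axis); points are the 4 RNA libraries and bars are the means of 2 libraries. The E16.5 points lie above the E13.5 points in each panel, and the beta cluster shows the widest gap between its E16.5 libraries, 163 and 225 CPM.

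The ratio of alpha to gamma RNA was higher in both E16.5 libraries than in either E13.5 library. The alpha sum was 0.116 and 0.120 of the gamma sum at E13.5 and 0.194 and 0.198 of it at E16.5. The stages did not overlap, and the exact two-sided permutation p was 0.333, the smallest that 2 against 2 libraries can give. The ratio of beta to gamma was 0.155 and 0.140 at E13.5 against 0.144 and 0.196 at E16.5, so the stages overlapped (exact permutation p = 0.667). The ratio of alpha to beta was 0.747 and 0.859 and then 1.34 and 1.01, without overlap (exact permutation p = 0.333).

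Gene by gene, 57 of the 58 records had enough counts to be tested. Pcdhb1, the first beta gene, had 0 counts in 3 libraries and 1 count in the second E16.5 library. The edgeR test called 46 members higher at E16.5 and 1 lower and left 10 uncalled, where a call is an adjusted p under 0.05. Over all 16237 genes tested, 28.4% were called higher and 29.2% lower. The median log2 change of the 57 tested members was 0.83, against 0.01 over all genes tested. The authors' deposited table called 39 members higher and 1 lower, and all 39 were among the 46.

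All 12 alpha records were called higher, with a median log2 change of 1.58. Pcdha3 stood at 7.27 and 5.02 CPM at E13.5 and at 20.1 and 22.3 CPM at E16.5. Pcdha2 went from 4.56 and 5.51 CPM to 16.3 and 18.4 CPM, and Pcdha5 from 6.07 and 5.57 CPM to 19.4 and 19.999 CPM. These were the largest alpha rises, with log2 changes of 1.79 for Pcdha3, 1.78 for Pcdha2 and 1.76 for Pcdha5, and the E16.5 libraries did not overlap the E13.5 libraries for any of them. Pcdha12, the last of the alternate alpha genes in genome order, went from 8.35 and 10.48 CPM to 29.0 and 30.8 CPM, a log2 change of 1.66. Pcdha1, the first alpha gene, was low, at 0.901 and 1.21 CPM and then 1.96 and 2.29 CPM. Its call (log2 change 0.997, edgeR adjusted p = 0.0398) was lost in 7 of the alternative analyses, with adjusted p from 0.0511 to 0.221. The log2 change was 1.47 for the Pcdha11 record ENSMUSG00000007440.10 and 0.89 for the record ENSMUSG00000102206.5, and how reads shared by both were divided is not stated in the labels. No record bore the symbol Pcdha10, and whether 1 of the Pcdha11 records stands for that gene was not settled here.

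**Figure D2:**
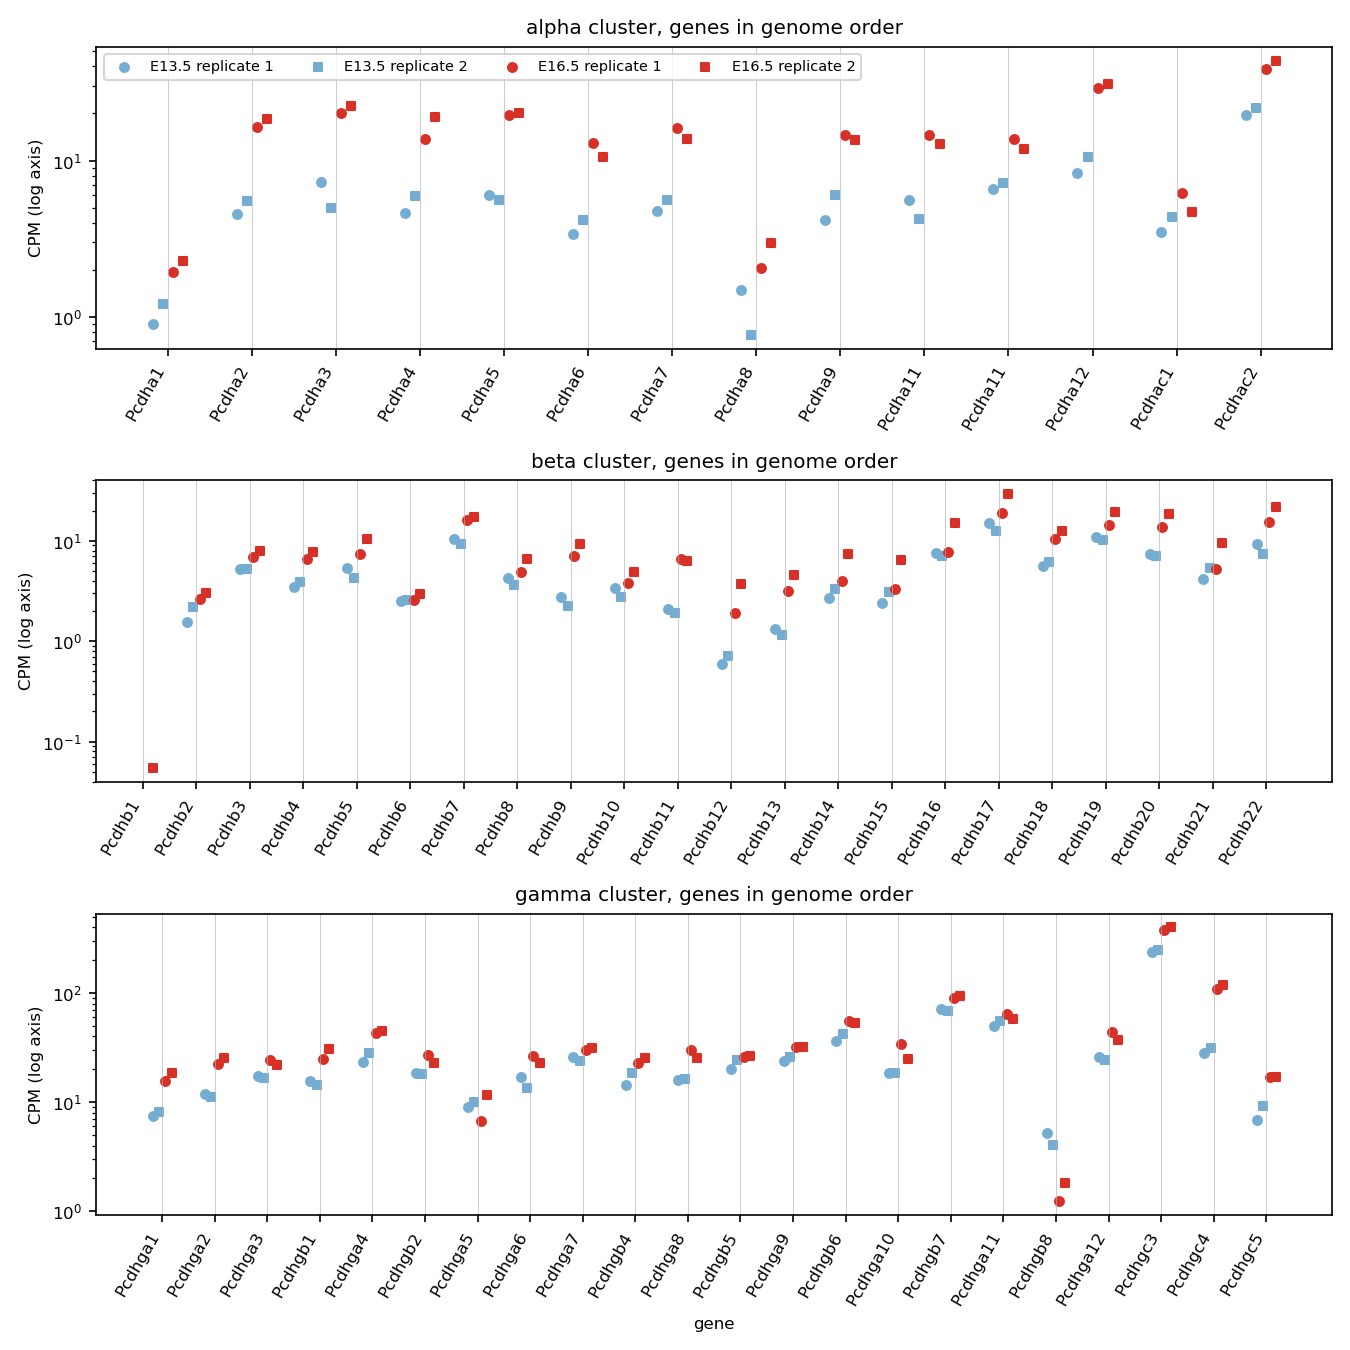
CPM of each member in each of the 4 RNA libraries (vertical axes, logarithmic), with genes in genome order and 1 panel for each cluster; values of 0, which belong to Pcdhb1 only, are not drawn. Most red E16.5 points lie above the blue E13.5 points, Pcdhgb8 lies the other way, and Pcdhgc3 is the most counted gene.

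The C-type genes, which lie at the far end of the alpha and gamma clusters, did not move as 1 group. Pcdhgc4, a gene known for its role in neuron survival, stood at 28.4 and 31.6 CPM at E13.5 and at 110 and 118 CPM at E16.5 (log2 change 1.92 ± 0.07 SE, edgeR adjusted p = 8.9e-07). Its share of all gamma counts went from 4.08% and 4.32% to 9.72% and 10.3%. Pcdhgc3, the most counted gamma gene, stood at 235 and 250 CPM and then at 381 and 400 CPM, a log2 change of 0.68. Its share of gamma counts stayed between 33.7% and 35.0% in the 4 libraries. Pcdhgc5 stood at 6.79 and 9.26 CPM and then at 17.0 and 16.9 CPM (log2 change 1.08). Pcdhac2 went from 19.5 and 21.8 CPM to 38.5 and 43.4 CPM (log2 change 0.99), below the alpha type's median of 1.58, and its share of alpha counts was 24.2% and 24.8% at E13.5 against 17.6% and 19.2% at E16.5. Pcdhac1 stood at 3.48 and 4.36 CPM and then at 6.20 and 4.69 CPM, and the edgeR test did not call it (log2 change 0.47, adjusted p = 0.135).

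Of the 21 tested beta genes 14 were called higher and none lower, with a median log2 change of 0.83. Pcdhb12 had the largest rise of any member, from 0.601 and 0.717 CPM to 1.90 and 3.71 CPM (log2 change 2.08 ± 0.44 SE, edgeR adjusted p = 0.00443). Without the second E16.5 library its log2 change was 1.51 and the call was lost (adjusted p = 0.0551). Pcdhb9 went from 2.76 and 2.26 CPM to 7.095 and 9.21 CPM, a log2 change of 1.70, and Pcdhb11 from 2.10 and 1.93 CPM to 6.65 and 6.32 CPM, a log2 change of 1.68. Pcdhb22, the last beta gene, went from 9.25 and 7.44 CPM to 15.3 and 21.5 CPM, a log2 change of 1.14. Per kilobase of RefSeq gene span, Pcdhb17 had the highest beta level at both stages, with 4.23 CPM per kilobase at E13.5 and 7.38 at E16.5. It was followed at E13.5 by Pcdhb7 with 2.81 and Pcdhb22 with 2.72, and at E16.5 by Pcdhb22 with 6.005 and Pcdhb7 with 4.77 CPM per kilobase.

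The E16.5 libraries differed from each other more for the beta genes than for the other types. Of the 21 tested beta genes 20 were higher in the second E16.5 library, with a median log2 difference between the libraries of 0.41, against 0.06 for the alpha type and -0.07 for gamma A. The beta sum was still called higher without either E16.5 library, with a log2 change of 0.63 (edgeR adjusted p = 6.8e-05) without the second and 1.08 (edgeR adjusted p = 3.0e-06) without the first. Ttr, a gene of the choroid plexus, also differed between replicates, at 0.480 and 8.66 CPM at E13.5 and 0.615 and 19.3 CPM at E16.5. At E13.5 the beta sums were 108 and 102 CPM. On the same marker list, Col1a2 stood at 9.27 and 12.3 CPM at E16.5 and Col1a1 at 9.05 and 4.96 CPM. The erythroid marker sums were 2605 and 3525 CPM in the E16.5 libraries. The part of choroid plexus tissue or of blood in the beta difference was not tested.

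Among the gamma A genes 11 of 12 were called higher, with a median log2 change of 0.67. Pcdhga1, the first gene of the cluster, went from 7.51 and 8.11 CPM to 15.6 and 18.4 CPM, a log2 change of 1.12. Pcdhga2 went from 11.8 and 11.2 CPM to 22.5 and 25.6 CPM, a log2 change of 1.07, and Pcdhga8 from 16.0 and 16.3 CPM to 30.3 and 25.6 CPM, a log2 change of 0.79. Pcdhga12, the last gamma A gene, went from 26.005 and 24.3 CPM to 43.6 and 36.7 CPM, a log2 change of 0.67. Pcdhga5 was the 1 gamma A gene not called, at 9.01 and 10.1 CPM and then 6.70 and 11.7 CPM, so its stages overlapped.

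Among the gamma B genes 5 of 7 were called higher and 1 lower, with a median log2 change of 0.47. Pcdhgb1 had the largest rise of the type, from 15.5 and 14.3 CPM to 24.9 and 30.4 CPM (log2 change 0.89), followed by Pcdhgb4 (0.56) and Pcdhgb6 (0.48). Pcdhgb8, annotated as a polymorphic pseudogene in the authors' deposited table, was the 1 member called lower. It stood at 5.22 and 4.08 CPM at E13.5 and at 1.23 and 1.80 CPM at E16.5, without overlap (log2 change -1.61 ± 0.31 SE, edgeR adjusted p = 0.00238).

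The size of the change was also set beside position in the cluster. Over the 19 gamma A and gamma B genes in genome order, Spearman's rho between position and log2 change was -0.51, and -0.45 without Pcdhgb8, so genes nearer the start of the cluster tended to have larger changes. Over the 12 alternate alpha records rho between position and log2 change was -0.36, and over the 21 tested beta genes it was 0.31. The genes of a cluster share libraries, and in alpha and gamma they share exons, so these values carry no test.

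**Figure D3:**
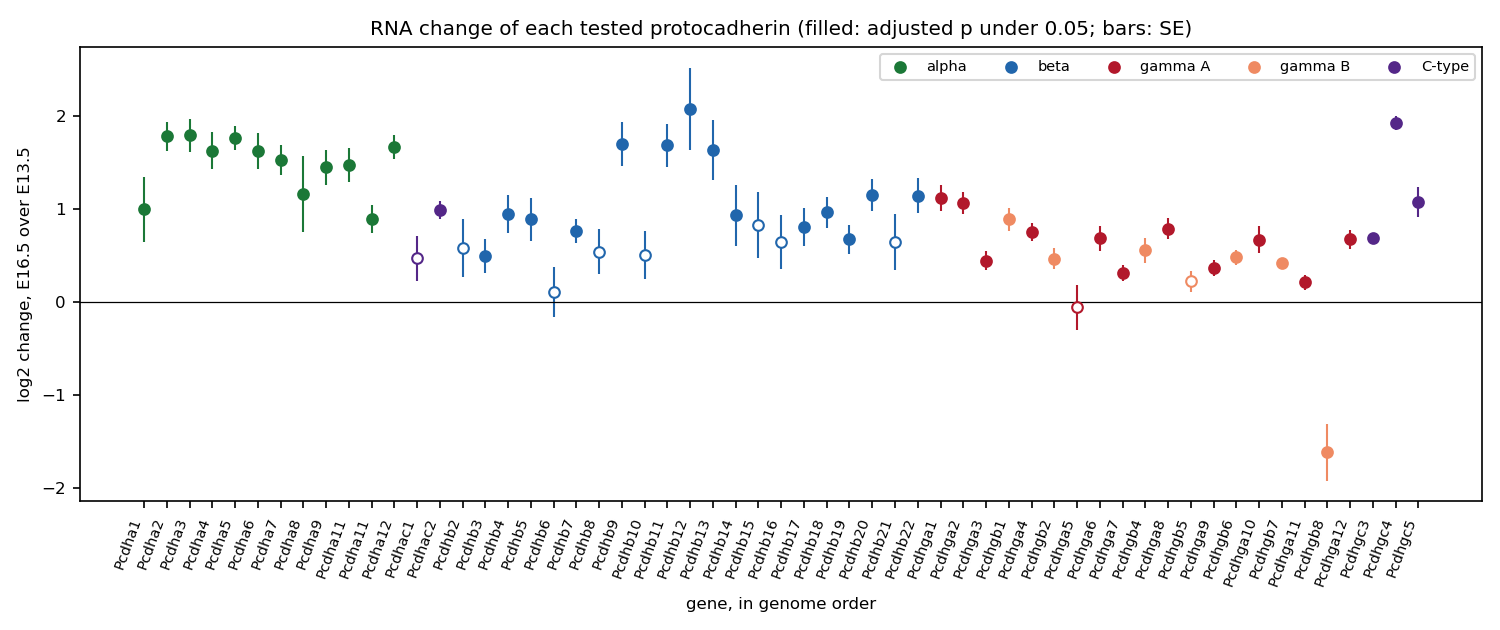
Log2 change from E13.5 to E16.5 (vertical axis) of the 57 tested members in genome order, coloured by type; bars are standard errors and filled points have an edgeR adjusted p under 0.05. Most alpha genes, Pcdhb9, Pcdhb11, Pcdhb12, Pcdhb13 and Pcdhgc4 sit highest, the gamma A and gamma B genes sit lower, and Pcdhgb8 is the 1 called point below 0.

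The spread of counts over the genes of a cluster was measured by the effective number of members. It is the exponential of the Shannon entropy of the count shares, not corrected for length, and equals the number of genes when all hold equal shares. It was 11.2 and 11.004 at E13.5 against 11.6 and 11.3 at E16.5 for the 14 alpha records. For the 22 beta genes it was 16.6 and 17.3 and then 17.3 and 17.4. For the 22 gamma genes it was 12.5 and 12.4 and then 12.3 and 11.9. The stages overlapped for beta and did not for alpha, where the mean was 0.355 higher at E16.5, or for gamma, where it fell by 0.395. Counts in alpha and gamma were divided among genes by the authors' estimator, since reads from the constant exons fit every gene of the cluster. Within 0.1 of a whole number lay 69.4% of the estimates above 0 for beta genes, against 16.1% for alpha and 19.3% for gamma.

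Genes that act on the clusters were described from lists chosen with earlier results of these data known. Of 14 tested genes of CTCF and cohesin, 11 were called lower and 1 higher, with a median log2 change of -0.53 against 0.01 over all genes tested. Beside this list and those below, 28.4% of all genes tested were called higher and 29.2% lower. Esco2, a cohesin acetyltransferase of dividing cells, went from 26.005 and 25.5 CPM to 8.94 and 8.50 CPM (log2 change -1.56), and Stag2, a cohesin subunit, from 117 and 119 CPM to 69.5 and 72.4 CPM (log2 change -0.73). Mau2, which helps load cohesin, was the 1 gene called higher, with a log2 change of 0.23. Of 17 genes linked to silencing of protocadherin promoters, 12 were called lower and none higher, with a median of -0.50. The list also held Tet1, Tet2, Tet3 and Zfp143, which are not silencers themselves. Of these, Tet3 (log2 change -0.44) and Zfp143 (-0.58) were counted among the genes called lower, and Tet1 and Tet2 were not called. Uhrf1, which brings DNA methylation to newly copied DNA, had a log2 change of -1.69 and Cbx3, a heterochromatin protein, one of -0.76. Many genes on both lists are also used by dividing cells, whose markers fell as given above, and the part of dividing cells in these lists was not tested.

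Of 22 signalling partners of protocadherins 4 were called higher and 9 lower, with a median log2 change of -0.10. For this list and those below, the shares over all genes tested were 28.4% higher and 29.2% lower. With upper-quartile scaling in place of TMM the partners split 8 higher and 5 lower, beside 32.9% and 23.5% of all genes tested. The same change of scaling took the median of all genes from 0.01 to 0.10 and that of the list from -0.10 to -0.0064. Ptk2b, a kinase bound by protocadherin tails, went from 0.180 and 0.496 CPM to 5.98 and 5.99 CPM, and Ret, a receptor kinase, had a log2 change of 1.59. Marcks (log2 change -0.66) and Axin1 (-0.55) were called lower. Of 12 protocadherins that lie outside the clusters 10 were called higher and 1 lower, with a median of 0.87. Pcdh20 had a log2 change of 1.81 and Pcdh15 one of 1.61, and Pcdh19 was the 1 called lower, from 103 and 110 CPM to 77.2 and 72.4 CPM. Of 21 tested genes of the wider cadherin family 13 were called higher and 4 lower, with a median of 0.43. Cdh9 (log2 change 3.002) and Cdh18 (2.03) had the largest rises, and Celsr1 (-0.64) and Cdh22 (-0.43) the largest falls.

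The histone peaks were read over the first 2500 bp from the RefSeq start of each of the 57 genes, a window that stands in for the variable exon because exon positions were not used here. A member was counted as marked at a stage when a peak overlapped its window by at least 1 bp in both libraries. The same count was made for 17492 protein-coding genes on other chromosomes as the background. Peak height is given as the fold enrichment in the authors' peak lists and is compared only within a list. Where heights from several lists are printed side by side, a difference between the lists was not tested.

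H3K9ac and H3K9cr marked more members at E16.5 than at E13.5. H3K9ac marked 28 of 57 members (49.1%) at E13.5 and 45 (78.9%) at E16.5, while 58.7% and 60.7% of the background genes were marked. H3K9cr marked 37 (64.9%) and then 48 (84.2%), against 59.0% and 60.7% of the background genes. H3K9ac gained 7 members, with a peak in both E16.5 libraries and in neither E13.5 library, against 1.31% of background genes, and lost none, against 0.131%. H3K9cr gained 6 members, against 0.88%, and lost none, against 0.114%. The E16.5 lists were longer, with 49652 and 50668 H3K9ac peaks against 37319 and 34532, and 41074 and 42304 H3K9cr peaks against 32567 and 28968. When each list of a mark was held to the same number of top peaks, 5 members were gained for each mark. H3K9ac then marked 28 members at E13.5 and 40 at E16.5. The share of background genes was not computed at that setting. The H3K9ac gain was 12 without the first E13.5 library and 13 without the second, and the H3K9cr gain was 10 without the first E13.5 library.

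By type, the count of marked members differed most between stages for the beta genes. H3K9ac marked 4 of 22 beta genes at E13.5 and 18 at E16.5, and H3K9cr marked 11 and then 21. In single libraries H3K9ac peaks lay over 7 and 9 beta genes at E13.5 and over 18 and 21 at E16.5. For H3K9cr these counts were 15 and 12 and then 21 and 21. The members that gained H3K9ac were Pcdhb8, Pcdhb11, Pcdhb12, Pcdhb14, Pcdhb15, Pcdhb22 and Pcdhgc5. Those that gained H3K9cr were Pcdhb1, Pcdhb2, Pcdhb5, Pcdhb11, Pcdhb12 and Pcdhgc5. Pcdhb11, Pcdhb12 and Pcdhgc5 gained both marks. In RNA, 5 of the 7 members that gained H3K9ac were called higher, all but Pcdhb8 and Pcdhb15, and 4 of the 5 tested members that gained H3K9cr, all but Pcdhb2, against 46 of all 57 tested members. Pcdhb1 gained an H3K9cr peak, with fold enrichments of 4.88 and 7.17, while its RNA stood at 0 and 1 count at E16.5. The 10 gamma A genes with H3K9ac at E13.5 became 11 at E16.5, and the 7 alternate alpha genes became 9 of 11. For gamma B the count was 3 of 7 and then 2 of 7 for both H3K9ac and H3K9cr, with 0 genes lost from both E16.5 libraries. In single libraries H3K9ac peaks lay over 4 and 4 gamma B genes at E13.5 and over 2 and 5 at E16.5. For H3K9cr these counts were 4 and 4 and then 4 and 3, so no direction for the type is shown.

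**Figure D4:**
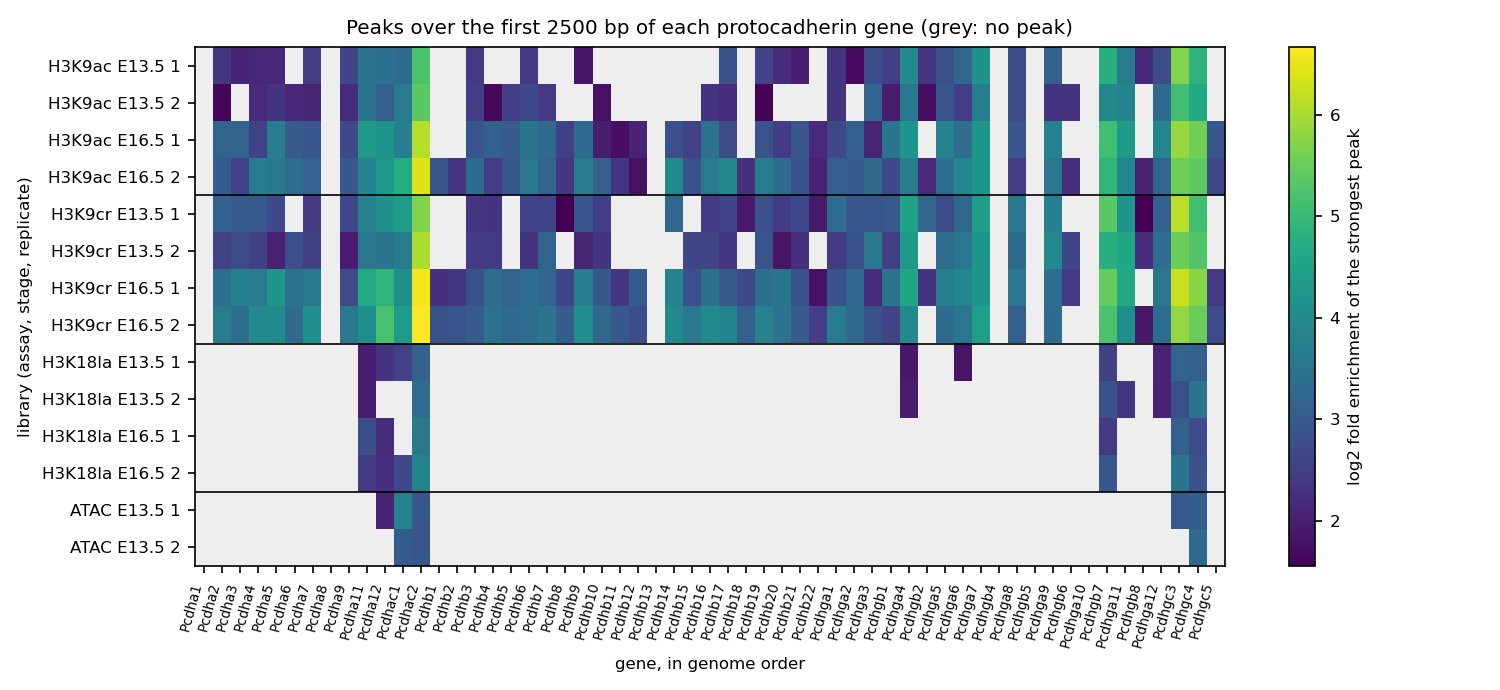
Log2 fold enrichment of the strongest peak over the first 2500 bp of each gene (colour; grey means no peak) in genome order (horizontal axis) for the 14 peak lists (vertical axis). The H3K9ac and H3K9cr lists show more beta genes at E16.5, while H3K18la and ATAC peaks sit near the C-type genes and a few others, with no beta gene.

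The same 6 genes had neither an H3K9ac nor an H3K9cr peak in any of the 8 lists, a group singled out after its values were seen. They were Pcdha1, Pcdha8, Pcdhb13, Pcdhgb4, Pcdhgb5 and Pcdhga10. All 6 had RNA counts at both stages. For the alpha and gamma genes among them, reads from shared exons were divided between genes by the authors' estimator. The 2500 bp window in which peaks were read only stands in for the variable exon. Pcdhgb5 stood at 22.2 ± 3.21 CPM (SD, n = 2) at E13.5, Pcdhga10 at 18.5 ± 0.187 CPM and Pcdhgb4 at 16.4 ± 2.75 CPM, while Pcdha1, Pcdha8 and Pcdhb13 lay between 1.06 and 1.24 CPM. The edgeR test called 5 of the 6 higher at E16.5. Of the 26 members with H3K9ac in all 4 lists (Pcdha11, with its 2 RNA records, left aside), 23 were called higher. Both stand beside 46 of all 57 tested members and 28.4% of all genes tested. A difference between marked and unmarked members was not tested.

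H3K18la was sparse over the clusters. It marked 7 of 57 members (12.3%) at E13.5 and 6 (10.5%) at E16.5, against 47.7% and 43.1% of the background genes. No beta gene had an H3K18la peak in any list. The 5 genes marked in all 4 lists were Pcdha11, Pcdhac2, Pcdhgb7, Pcdhgc3 and Pcdhgc4, and every gene marked by H3K18la at a stage was also marked by both H3K9ac and H3K9cr at that stage. No member gained H3K18la, against 0.743% of background genes, and 2 lost it, Pcdhga4 and Pcdhga12, against 2.29%. In Pcdhga12 the E13.5 H3K18la summits lay 2372 and 2420 bp after the gene start, at the far edge of the window, and the count lost was 1 when the window was 1000 bp on each side of the start.

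Open chromatin by ATAC-seq, measured at E13.5 only, was found at 3 members (5.26%) in both libraries, against 38.7% of the background genes. They were Pcdhac1, Pcdhac2 and Pcdhgc4, all C-type. Their fold enrichments were 14.0 and 8.36 for Pcdhac1, 7.72 and 7.63 for Pcdhac2 and 8.42 and 10.1 for Pcdhgc4. A peak in 1 library only was seen at Pcdha12, with a fold enrichment of 4.13, and at Pcdhgc3, with 7.93. No beta, gamma A or gamma B gene had an ATAC peak in either library.

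The C-type peaks had the higher median fold enrichment and length within each H3K9ac, H3K9cr and H3K18la list. At E16.5 Pcdhac2 had the highest H3K9cr fold enrichment of the members, 97.5 and 102, and the highest H3K9ac fold enrichment, 68.8 and 85.5. At E13.5 Pcdhgc3 had the highest H3K9ac fold enrichment in the first library (52.5) and Pcdhac2 in the second (41.6), and Pcdhgc3 the highest H3K9cr fold enrichment in the first (70.9) and Pcdhac2 in the second (66.1). For H3K18la the highest at E13.5 were Pcdhgc3 in the first library (9.15) and Pcdhgc4 in the second (11.5), and Pcdhac2 was highest in both E16.5 libraries (12.2 and 14.5). Pcdhgc5 was unlike the other C-type genes, with no peak at E13.5 in any list and H3K9ac fold enrichments of 7.58 and 6.40 at E16.5.

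Over the alpha, beta, gamma A and gamma B genes the peaks were short and lay just inside the gene. Their median length in the H3K9ac lists was 408 and 434 bp at E13.5 against 468 and 481 bp at E16.5, against 2029 to 2175 bp for the C-type peaks. The median summit lay 135 and 195 bp after the gene start at E13.5 and 159 and 163 bp at E16.5. The median fold enrichment of these peaks sat at the 35.2 and 29.5 percentile of all H3K9ac peaks of the E13.5 libraries and at the 52.6 and 57.0 percentile of those of the E16.5 libraries, ranks that lists of different length do not allow to be compared. H3K9cr peaks over these genes had median lengths of 403 and 427 bp at E13.5 against 507 and 532 bp at E16.5.

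**Figure D5:**
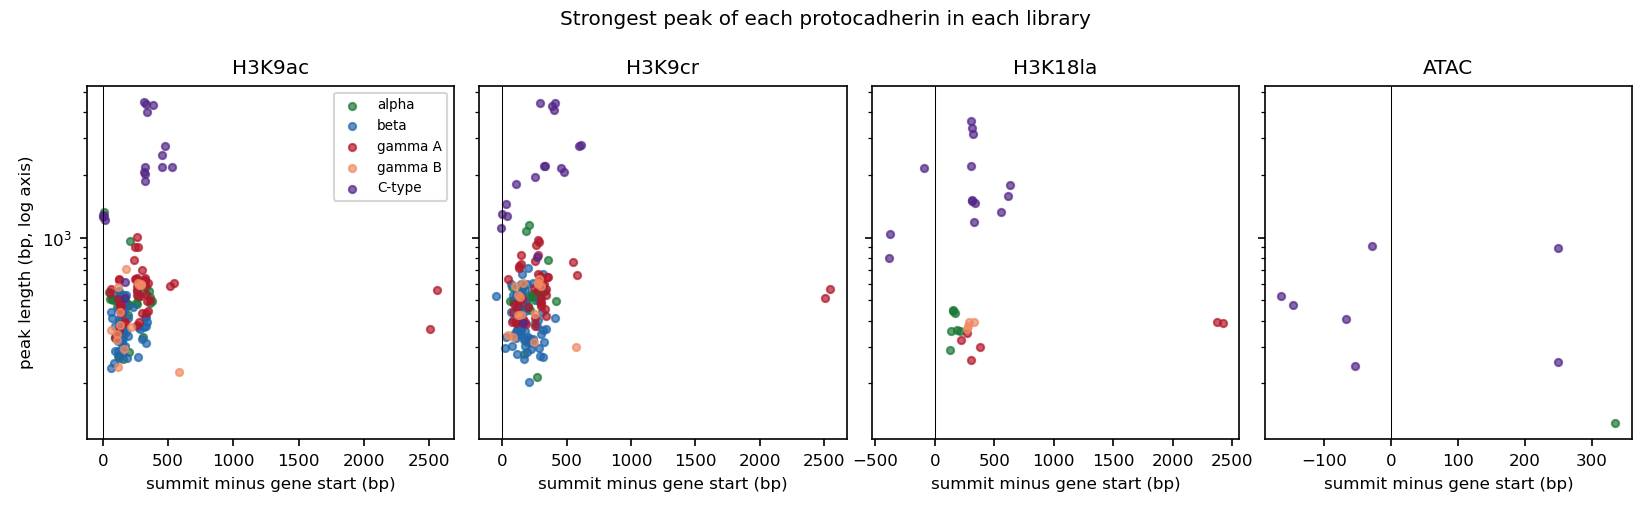
Length of the strongest peak of each gene in each list (vertical axes, logarithmic) against the distance of its summit from the gene start (horizontal axes), coloured by type, with 1 panel for each assay. C-type peaks lie highest and most others form a cloud under about 1000 bp in length close to the start; the points near 2500 bp belong to Pcdhga12.

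Outside the gene windows, 18 regions held peaks between 15000 bp before the first alpha gene and 15000 bp after the last gamma gene, and 6 of them were present in all 14 lists. Of these 6, 2 overlapped the neighbouring genes Taf7 and Diaph1. Of the other regions in all 14 lists, chr18:37216190-37218650 (GRCm38) lay 27293 bp beyond the end of the alpha genes and 46348 bp before Pcdhb1. Its H3K9ac fold enrichment was 68.2 and 65.3 in the E13.5 lists and 120 and 117 in the E16.5 lists, and its H3K9cr fold enrichment was 82.9 and 70.7, and 135 and 121. It also held H3K18la (27.7 and 25.5, then 35.5 and 35.2) and ATAC peaks (12.3 and 9.50). Another, chr18:37176000-37179356, lay inside the span of the alpha genes, 12897 bp before its end, with fold enrichments of 44.1 to 96.8 for H3K9ac. A region at chr18:37840716-37843447 began 1157 bp before the end of the gamma genes, with H3K9ac fold enrichments of 38.4 to 43.8. Enhancers of the alpha cluster are known to lie within and beyond its constant exons, and none was matched to these regions.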

How the data were processed

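RNA was measured in 4 libraries and peaks in 14 lists. Per the submitters' processing notes, Salmon 1.1.0, Bowtie2 2.4.1, MACS2 2.2.7.1, DESeq2 1.26.0 and the build GRCm38 were used by the authors, with settings not given in the sources used. The authors' deposited RNA table holds expected counts per gene, which were rounded to whole numbers. A second table deposited by the authors holds their log2 fold changes and adjusted p-values. Per the file headers, the deposited peak lists give pileup signal, −log10 p and q values and a fold enrichment for each peak.

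Counts were tested with edgeR 4.0.16 (TMM, filterByExpr, quasi-likelihood, Benjamini-Hochberg over 16237 genes, 2 residual degrees of freedom) in R 4.3.3 after a check on simulated data. The alternatives were upper-quartile scaling, DESeq2 1.42.0, no filter, a replicate block, leaving out each library, and, for peaks, a −log10 q of at least 5, at least 200 bp covered, 1000 bp on each side of the start and equal numbers of peaks. Gene starts came from RefSeq for 57 of 57 symbols, and members were read on the forward strand. Background genes were protein-coding RefSeq genes with a stated strand, none of them on chromosome 18.

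The members and the lists of other genes were chosen with earlier results of these data known. Genes named were all C-type genes, the 3 largest called rises and falls and the first and last gene of each other type, the 2 largest called rises and falls of each other list, and every member that gained or lost a mark. Others were named after their values were seen. Library totals were 17059544 to 18485855 counts, and 2 libraries a group limit the precision of every test. The 4 input libraries were not analysed here.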

Additional observations from a re-analysis of the deposited data

How the results depend on the processing

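The count of members called higher was 46, and it lay between 39 and 47 under upper-quartile scaling, DESeq2, no filter, the replicate block and leaving out each RNA library, with 1 member lower each time. The 3 cluster sums stayed called and higher under all of these. The labels name no pairing of same-numbered libraries. Over the genes tested, the difference of replicate 1 minus replicate 2 correlated between the stages at 0.125. That value does not settle whether same-numbered libraries share a source. With the replicate block the call count was 46, 44 of which were the same genes, and the log2 changes of the alpha, beta and gamma sums were 1.40, 0.87 and 0.67. Under upper-quartile scaling all genes together had a median log2 change of 0.10 in place of 0.01, and the list medians became -0.44 for CTCF and cohesin, -0.41 for silencing, -0.0064 for signalling partners, 0.96 for protocadherins outside the clusters and 0.53 for other cadherins. Leaving out 1 RNA library gave medians of -0.57 to -0.53, -0.57 to -0.51, -0.17 to -0.044, 0.76 to 0.94 and 0.39 to 0.46 for these lists in the same order. Leaving out 1 peak list gave 7 to 13 members that gained H3K9ac, 0 to 1 that lost it, 6 to 10 that gained H3K9cr, 0 to 1 that lost it, 0 to 1 that gained H3K18la, 2 to 3 that lost it and 3 to 5 with ATAC peaks. With the same number of peaks in each list, 1 member lost H3K9ac. H3K18la was lost by 1 member with a −log10 q of at least 5 and by 1 with 1000 bp on each side of the start, and ATAC peaks covered at least 200 bp of 1 member. The cause of these differences was not tested beyond the fewer libraries, peaks or bases that each setting uses. An alternative with counts divided by coding length was not run, because coding lengths were not used here.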
